A study of Mus musculus with 12 samples.

Results

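The cerebral cortex of newborn mice, taken on postnatal day 1 (P1), was compared with the cortex of embryos at embryonic day 13 (E13), at the height of neuron production. The comparison used the 3 P1 and the 3 E13 libraries, 6 of the 12 RNA sequencing libraries of a study of zinc uptake and storage in the forming cortex. They were chosen by the age in the labels, and the other 6 libraries came from E11 and E17. All animals carried the C57BL/6 label, with no transgene, mutation or treatment named, and their sex is not given in the sources used here. Each library was made from 1 animal's cortex, and the animals of each age were taken from 3 litters. Which parts of the hemisphere were kept, and whether the membranes around it were removed, is not given in the sources used here. The values are read counts per gene, and a level below is the count relative to the library's scaled total (CPM). CPM is not divided by gene length, so levels were compared between ages and not between genes.

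In the mouse, cortical neurons are made by radial glia, dividing cells that line the ventricle, and by the intermediate progenitors derived from them. Deep-layer neurons are born first and upper-layer neurons later. Inhibitory interneurons migrate in from the ventral forebrain, and astrocytes and oligodendrocyte precursors appear around birth, when neurons are growing axons and starting to form synapses. In whole tissue, a lower level can come from fewer cells of a type or from less RNA per cell, and these cannot be told apart here.

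Total counts were 30767486 to 35276008 per library at E13 and 40473592 to 45555438 at P1. Across genes, Pearson's r of log2 CPM was 0.99 to 0.991 between E13 libraries, 0.992 to 0.994 between P1 libraries and 0.846 to 0.873 between the ages. Of 17847 genes tested, 14127 (79.2%) differed between P1 and E13 by edgeR's quasi-likelihood test at a Benjamini-Hochberg adjusted p of 0.05. Of these, 6864 (38.5% of the genes tested) were higher and 7263 (40.7%) lower at P1. Because so many genes differed, lists of genes are also described by a call with at least a 2-fold change, which 7569 genes (42.4%) met, 4109 (23%) upward and 3460 (19.4%) downward. The median log2 fold change, P1 minus E13, was -0.05. Scaling the libraries by their totals alone shifted all changes, by -0.2 at the median, and gave 5842 genes higher and 8586 lower. Changes of 16-fold or more were met by 609 genes upward and 249 downward. These p-values rest on the spread between animals of the same age, estimated jointly over the 4 ages and 12 libraries of the fit. Emx1, a gene of the dorsal forebrain, was present as the label implies, at 114 to 125 CPM at E13 and 38.4 to 42.2 CPM at P1. E17 levels are given below for orientation, with no test.

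All 40 genes of DNA replication and mitosis fell, with medians of -2.78 and -4.03, and all 10 genes of intermediate progenitors fell, with a median of -3.48. Of 102 genes for the axonal cytoskeleton, the synapse, transmitter receptors and ion channels, 97 rose, 96 of them at least 2-fold, 3 fell and 2 did not pass the test. The oligodendrocyte lineage rose in 11 of 11 genes tested. All 10 genes of the meninges, 7 of 8 of the choroid plexus and all 11 of red cells fell, while 6 of 9 of striatal neurons rose.

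**Figure D1:**
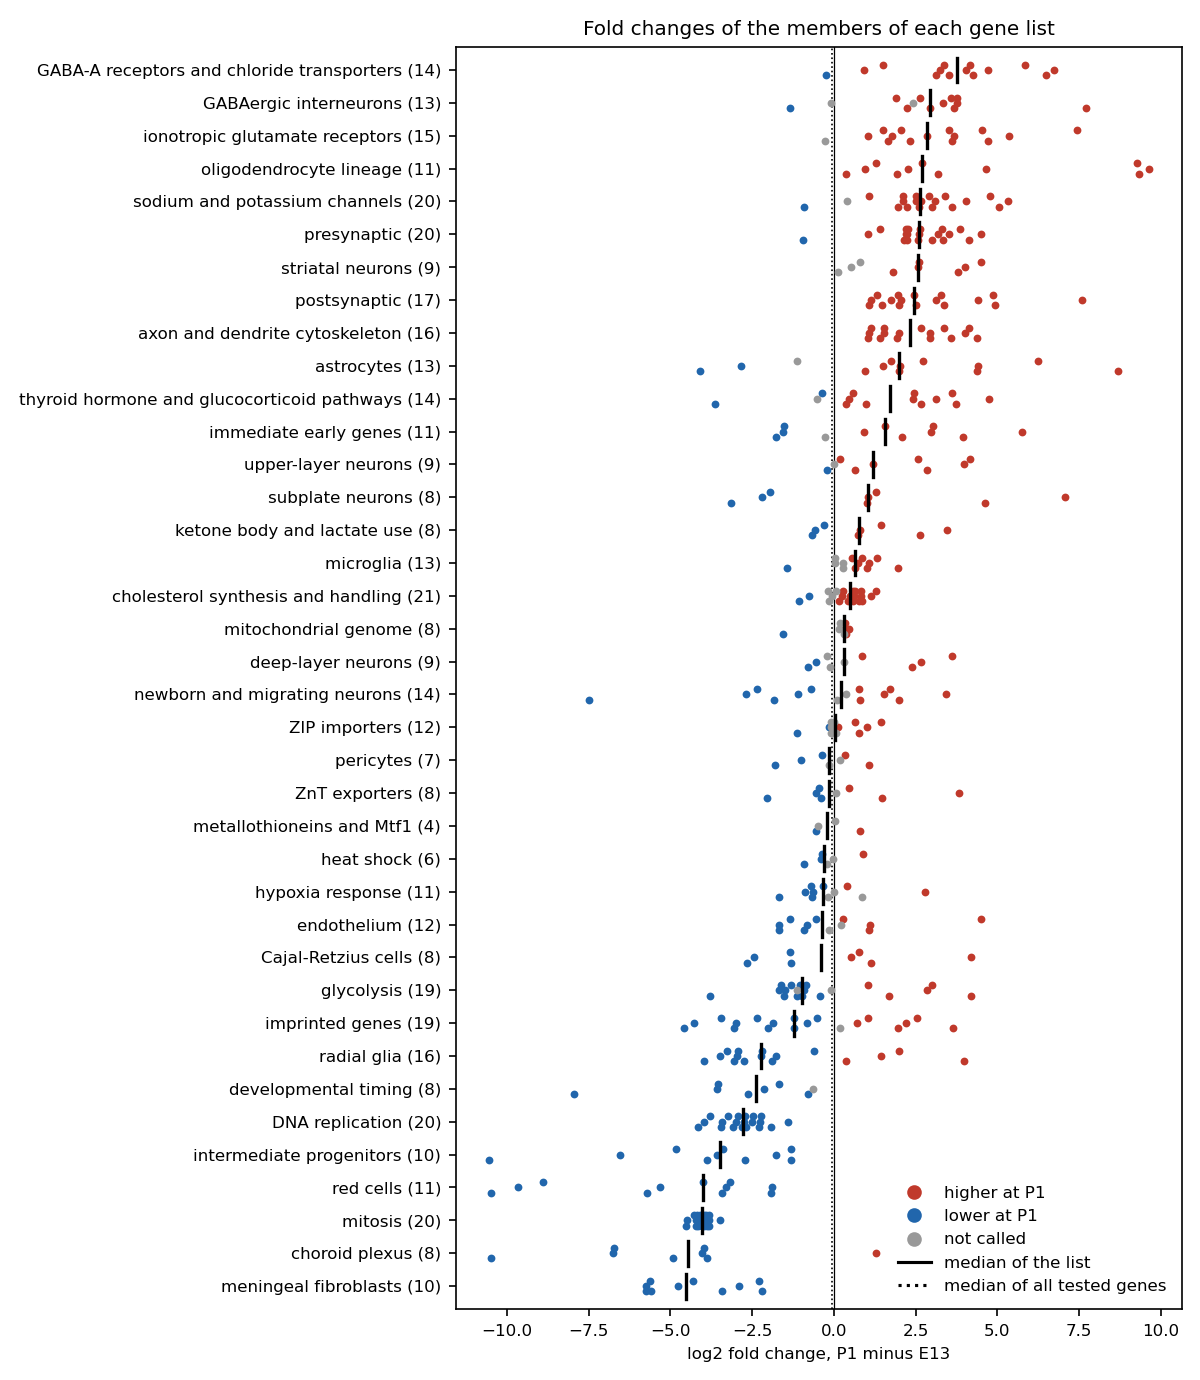
Each point is 1 gene of a list (number tested in parentheses), placed by its log2 fold change, P1 minus E13, and coloured by the edgeR call at an adjusted p of 0.05. Black bars are list medians; mitosis genes sit together near a median of -4.03, while genes of GABA-A receptors and chloride transporters have the highest median of the lists drawn, 3.78.

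The 10 largest rises by the naming rule were Rxfp1, Klhl14, Sox10, Gpr17, Olig1, Gfap, Stum, Ddn, Pla2g4e and Gda. Rxfp1, a relaxin receptor, had no count in the 3 E13 libraries and 1962 counts at P1, at least 585-fold higher when a floor of 3 counts over the E13 libraries is assumed. Klhl14 had 1 count at E13 and 1378 at P1, a ratio of 1230 with a 95% counting interval of 221 to 48700. Its fitted log2 fold change of 9.79 became 11.66 when the E13 B library, which held that count, was left out. Ddn, which encodes a dendritic and postsynaptic protein, was at 0.132, 0.168 and 0.185 CPM in the E13 libraries A, B and C and at 52.9, 50.9 and 82.2 CPM in the P1 libraries in the same order. Its log2 fold change was 8.56 ± 0.34 (SE; adjusted p = 2.41e-10, edgeR quasi-likelihood, as for all adjusted p-values here). Gda, guanine deaminase, stood at 0.0926 to 0.421 CPM at E13 and 78 to 95.5 CPM at P1, a log2 fold change of 8.36 ± 0.27. Counting intervals and floors cover counting error only.

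The 10 largest falls were Neurog1, Ttr, Hbb-y, Cckar, Hba-x, Fndc3c1, Hmga2, Wnt8b, Nhlh1 and Clic6. Neurog1, a proneural transcription factor, had 1905 counts at E13 and 1 at P1, a ratio of 2130 (95% counting interval 382 to 84100). Cckar, a cholecystokinin receptor, had 1369 counts at E13 and 1 at P1, a ratio of 1530 (274 to 60500). The single P1 counts lay in library B for Neurog1 and in library A for Cckar, and without those libraries the fitted log2 fold changes moved from -10.55 to -12.27 and from -10.07 to -11.8. Wnt8b, a Wnt ligand of the medial edge of the cortex, was at 48.1, 23.9 and 37.2 CPM at E13 and at 0, 0.515 and 0 CPM at P1. Its log2 fold change of -7.72 rested on P1 B, the single P1 library with counts, and was -13.29 without it. Without P1 A or P1 C it was -7.13 or -7.07. Fndc3c1 had a log2 fold change of -8.49, and of -9.12 without P1 B. Ttr and Clic6 mark the choroid plexus, and Hbb-y and Hba-x are embryonic globins; they are described with those tissues below.

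Every one of the 20 replication genes, which copy DNA in S phase, fell at least 2-fold, against 19.4% of all tested genes, from -1.41 for Rfc3 to -4.14 for Cdc6. All 20 mitosis genes fell at least 2-fold too, within a narrow range of -3.48 (Kif4) to -4.51 (Bub1). Mcm6, a subunit of the replicative helicase, was at 310, 258 and 303 CPM at E13 and at 41.3, 43.3 and 38.7 CPM at P1. Its log2 fold change was -2.82 ± 0.08 (adjusted p = 2.16e-12). Top2a, the topoisomerase of dividing cells, went from 907, 812 and 895 CPM to 57.4, 50.9 and 50.7 CPM, a log2 fold change of -4.04 ± 0.12 (adjusted p = 3.4e-12). Mki67, the gene of the proliferation antigen Ki-67, was at 809 ± 49.4 CPM (SD, n = 3) at E13 and 44.7 ± 4.98 CPM at P1. No member of either list had overlapping E13 and P1 libraries, which was also true of 81.1% of all tested genes. Summed over each list, replication genes stood at 2920 to 3560 CPM at E13, 701 to 884 CPM at E17 and 457 to 493 CPM at P1, and mitosis genes at 4340 to 4990, 613 to 872 and 274 to 310 CPM.

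Promoters of these genes are shown as a description, and a relation between their short sequence elements and the falls was not tested. Each line gives the 150 bases directly upstream of the RefSeq transcription start, 5′ to 3′ on the gene's strand (GRCm38.p6), with capitals marking matches to 3 elements. These are the cell cycle gene homology region (CHR, TTTGAA or TTCGAA), the CCAAT box (CCAAT) and the E2F site (TTTCGCGC, TTTGGCGC or TTTCCCGC), each on either strand.
Mcm6, chr1:128359706-128359855, minus strand: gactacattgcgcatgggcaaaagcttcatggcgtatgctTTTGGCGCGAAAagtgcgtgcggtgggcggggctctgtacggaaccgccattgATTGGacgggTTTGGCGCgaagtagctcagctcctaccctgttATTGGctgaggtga
Top2a, chr11:99024190-99024339, minus strand: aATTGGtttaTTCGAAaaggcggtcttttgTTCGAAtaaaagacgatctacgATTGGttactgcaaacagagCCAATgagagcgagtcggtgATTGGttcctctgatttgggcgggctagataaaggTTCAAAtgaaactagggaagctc
Cdk1, chr10:69352913-69353062, minus strand: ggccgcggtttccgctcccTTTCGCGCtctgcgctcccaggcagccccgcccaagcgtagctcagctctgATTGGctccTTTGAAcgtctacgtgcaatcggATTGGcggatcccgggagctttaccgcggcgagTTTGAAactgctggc
Cdc20, chr4:118437344-118437493, minus strand: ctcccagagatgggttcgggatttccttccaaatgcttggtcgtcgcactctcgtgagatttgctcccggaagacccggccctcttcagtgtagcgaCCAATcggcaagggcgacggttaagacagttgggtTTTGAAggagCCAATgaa
The Mcm6 stretch holds 3 E2F matches, of which 2 on opposite strands overlap, 2 CCAAT boxes and no CHR match. Top2a holds 3 CHR matches and 4 CCAAT boxes in the same length. Cdk1, the mitotic kinase, holds 2 CHR matches, 2 CCAAT boxes and 1 E2F match. Cdc20, an activator of the anaphase-promoting complex, holds 1 CHR match and 2 CCAAT boxes. These stretches are examples, and those of Tyms (replication) and Birc5 (mitosis) hold no match.

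Over windows of 300 bases, from 250 before the start to 50 after it, 12 of 16 promoters of mitosis genes (75%) held a CHR match, against 19.2% of all 32851 promoters in the table and 13.8% of the 15700 promoters of tested genes. A CCAAT box stood in 14 of the 16 (87.5%), against 37.4% and 37.3%. An E2F match stood in 1 of them (6.25%). Among replication genes, an E2F match stood in 9 of 21 promoters (42.9%), against 1.84% of all promoters and 3.12% of those of tested genes. A CCAAT box stood in 12 of the 21 (57.1%), above its share of all promoters as in the mitosis genes, and a CHR match in 4 (19%). Promoters were found for 16 of 20 mitosis and 17 of 20 replication genes. A match is a stretch of letters and was not tested for binding.

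Among 16 radial glia genes, 12 fell, 11 of them at least 2-fold, and 4 rose. Of all tested genes, 40.7% fell, 19.4% fell at least 2-fold, and 38.5% rose. Pax6, a transcription factor of cortical radial glia, was at 166, 173 and 181 CPM at E13 and at 21.5, 18.1 and 15.1 CPM at P1, a log2 fold change of -3.25 ± 0.13 (adjusted p = 1.92e-10). The intermediate filament genes Nes and Vim fell by 2.76 and 3.04, Gli3, a mediator of hedgehog signalling, by 3.96, and Hes5, a Notch target, by 2.19. The groups did not overlap for any of these. In the other direction, Slc1a3, a glutamate transporter that astrocytes keep, rose by 1.45 ± 0.12, Ptprz1 by 1.98 ± 0.15, and Fabp7 by 0.37 ± 0.15 (adjusted p = 0.0366). Tnc, the matrix protein tenascin C, went from 13.2, 25.3 and 16.2 CPM to 298, 314 and 246 CPM, a rise of 3.97 ± 0.27. At E17 it was higher still, at 405 to 579 CPM. Astrocytes also express the 4 genes of the list that rose. The genes that fell were not compared for this, and the part of astrocytes was not tested.

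Intermediate progenitor genes fell in 10 of 10. Eomes (Tbr2), the transcription factor that defines these cells, was at 309, 386 and 312 CPM at E13 and at 15.2, 15 and 5.85 CPM at P1. The P1 C library was lowest, yet all P1 values lay far below all E13 values, with a log2 fold change of -4.81 ± 0.34 (adjusted p = 4.19e-07). Neurog2, a proneural factor, fell from 249 ± 13.7 to 2.69 ± 1.25 CPM, and P1 C was again the lowest, at 1.27 CPM against 3.2 and 3.61. Insm1 and Dll3 fell least, by 1.32 and 1.3. At E17 Eomes still stood at 73.6 to 119 CPM and Neurog2 at 29 to 46.7 CPM, between the other ages. Nhlh1, a helix-loop-helix gene of newborn neurons, fell from 75.5 ± 4.07 to 0.428 ± 0.287 CPM, a log2 fold change of -7.47 that was -8.1 without P1 B.

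Genes that mark early against late progenitor stages fell in 7 of 8. Hmga2, a chromatin protein of young stem cells, was at 71, 32.3 and 84.6 CPM at E13 and at 0.186, 0.258 and 0.31 CPM at P1, a log2 fold change of -7.93 ± 0.6 (adjusted p = 8.19e-07). The E13 B library was lowest of its age. Igf2bp1, Igf2bp2 and Igf2bp3, which bind and stabilise messenger RNAs, fell by 3.54, 3.58 and 2.62. Lin28b, an inhibitor of let-7 microRNA maturation, changed little in comparison, from 4.66, 3.14 and 4.91 CPM to 2.24, 2.63 and 2.51 CPM. Its log2 fold change was -0.78 ± 0.26 (adjusted p = 0.014), and the call was lost without E13 C (adjusted p = 0.0525) or without P1 A (adjusted p = 0.06). Lin28a had 0 to 0.0794 CPM in the 6 libraries and did not pass the test.

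**Figure D2:**
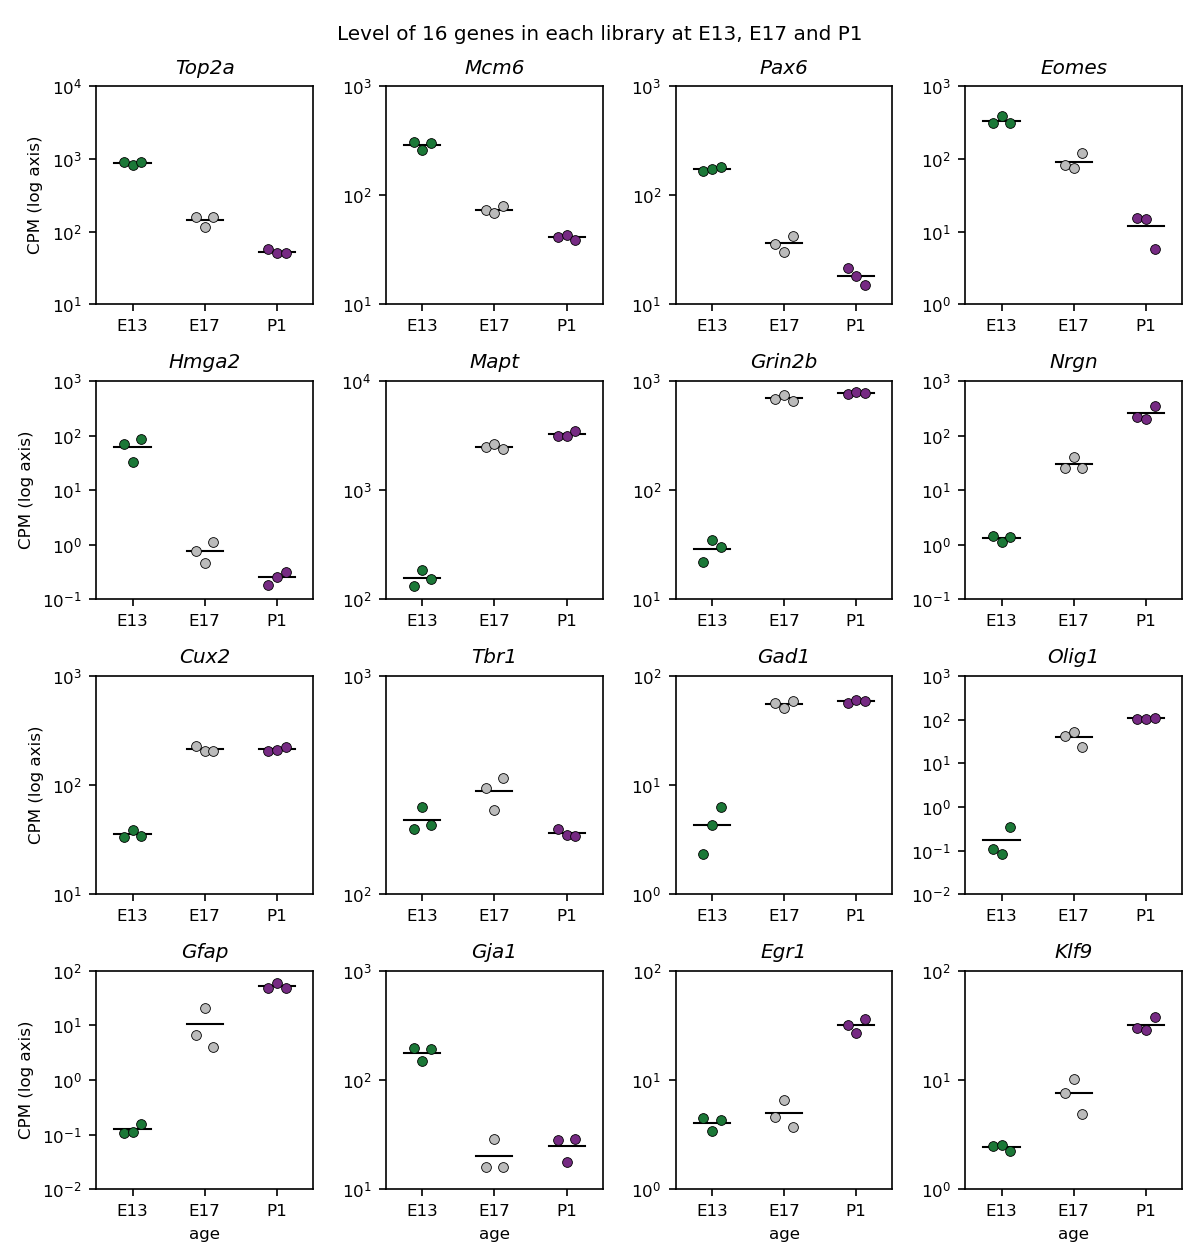
CPM of 16 genes in each library (points; A, B, C from left to right) at E13, E17 and P1, on log axes that differ between panels, with bars at the mean. Division and progenitor genes fall stepwise, Cux2, Gad1 and Grin2b stand near their P1 level at E17, and Egr1 stands near its E13 level at E17 (4.94 against 4.05 CPM).

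Of 14 genes of young, migrating neurons, 6 rose, 6 fell and 2 were not called. These shares were near those over all tested genes (38.5% up and 40.7% down). Dcx (doublecortin), a microtubule protein of migrating neurons, rose by 1.71 ± 0.12, Tubb3 by 1.98 ± 0.07 and Stmn2, a growth cone protein, by 3.42 ± 0.09. Neurod1 fell by 1.82, Rnd2 by 2.34 and Igfbpl1 by 1.1. Neurod6, a factor of excitatory neurons, was at 344, 455 and 354 CPM at E13 and at 508, 532 and 443 CPM at P1, and the ages overlapped between 443 and 455 CPM. Its log2 fold change was 0.36 (95% confidence interval -0.13 to 0.85), which did not pass the test with 12 libraries and passed it when the 6 libraries of these ages were fitted alone (0.37, adjusted p = 0.0117).

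All 16 genes of the axonal and dendritic cytoskeleton rose at least 2-fold, against 23% of all tested genes, with a median of 2.32. Mapt, the axonal microtubule protein tau, was at 133, 186 and 152 CPM at E13 and at 3130, 3150 and 3470 CPM at P1, a log2 fold change of 4.37 ± 0.13 (adjusted p = 8.63e-12). The neurofilament gene Nefl rose by 4.14 ± 0.15 and Gap43, a growth cone protein, by 3.36 ± 0.12. Stmn1 and Tuba4a rose least, by 1.07 and 1.04. Tubulin genes are close copies of one another, so reads shared between them may have been left out or misplaced by the authors' counting.

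Presynaptic genes rose in 19 of 20. Rims1, a scaffold of the vesicle release site, was at 4.34, 4.72 and 4.57 CPM at E13 and at 100, 98 and 107 CPM at P1, the largest rise of the list at 4.49 ± 0.08 (adjusted p = 4.77e-13). Syt1, the calcium sensor of release, rose by 4.13 ± 0.12, Snap25, a membrane fusion protein, by 3.31 ± 0.13, and Syn1, which tethers vesicles, by 3.2 ± 0.13. The 1 gene that fell was Slc17a6, the vesicular glutamate transporter VGLUT2. It went from 65.3, 80.3 and 65.8 CPM to 33.7, 38.9 and 37.7 CPM, a log2 fold change of -0.94 ± 0.11. Slc17a7, which encodes VGLUT1, the form that prevails in the adult cortex, rose from 46.7, 65.6 and 48 CPM to 104, 101 and 126 CPM, by 1.04 ± 0.14.

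All 17 postsynaptic genes rose at least 2-fold, with a median of 2.46. Nrgn (neurogranin), a calmodulin-binding protein of dendritic spines, rose most, from 1.45, 1.12 and 1.36 CPM at E13 to 218, 200 and 343 CPM at P1. Its log2 fold change was 7.59 ± 0.32 (adjusted p = 2.11e-09), P1 C was the highest library, and E17 stood at 25.4 to 40.2 CPM. Camk2b, a subunit of the calcium/calmodulin kinase, rose by 4.88 ± 0.17 and Camk2a by 2.5 ± 0.15. The scaffold genes Dlgap1 and Dlg2 rose by 4.93 and 4.41, and Dlg4, which encodes PSD-95, by 2.06.

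Of 15 ionotropic glutamate receptor genes, 14 rose, with a median of 2.86. The obligatory NMDA receptor subunit gene Grin1 went from 3.76, 5.14 and 4.2 CPM to 170, 167 and 196 CPM, a log2 fold change of 5.35 ± 0.14. Grin2b, the subunit of immature synapses, rose by 4.73 ± 0.15 and was already at 650 to 748 CPM at E17, against 754 to 785 CPM at P1. Grin2a, the subunit of mature synapses, was at 0.674 to 1.64 CPM at E13 and at 13.6 to 17.1 CPM at P1, a rise of 3.61 ± 0.39. Grin3a rose most, by 7.44 ± 0.26. Grik2, a kainate receptor subunit, did not pass the test, with a log2 fold change of -0.27 (adjusted p = 0.181). Under scaling by totals, or with the 6 libraries of these ages alone, 1 gene of the list was called lower.

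Inhibitory transmission genes rose in 13 of 14, with a median of 3.78. The GABA-A receptor subunit Gabra5 rose from 1.38, 2.08 and 2.01 CPM to 95.6, 110 and 111 CPM (log2 fold change 5.86 ± 0.25), Gabrg3 by 6.49 ± 0.25 and Gabrb2 by 4.71 ± 0.1. Gabra2 rose least, by 0.91 ± 0.2. The 2 chloride transporters of the list moved unequally. Slc12a5 (KCC2), which exports chloride from mature neurons, went from 3.81, 5.17 and 5.25 CPM to 85.3, 81.7 and 105 CPM, a rise of 4.26 ± 0.2. Slc12a2 (NKCC1), which imports it, went from 80.1, 77.3 and 74.6 CPM to 63.2, 69.8 and 64.6 CPM, a fall of 0.23 ± 0.06 on the log2 scale (adjusted p = 0.00343). The groups did not overlap for either.

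Of 20 sodium and potassium channel genes, 18 rose at least 2-fold. Scn2a, the sodium channel of immature axons, went from 8.86, 9.6 and 9.35 CPM to 259, 231 and 270 CPM, a rise of 4.77 ± 0.08. Kcnc2, a fast potassium channel, rose by 5.06 ± 0.17. Kcna1 did not pass the test (log2 fold change 0.39, adjusted p = 0.224). Scn4b, at 0.988 to 1.59 CPM at E13 and 0.597 to 0.772 CPM at P1, fell by 0.9 ± 0.36 (adjusted p = 0.0368), and that call was lost when E13 A, E13 B, P1 A, P1 B or P1 C was left out, with adjusted p-values of 0.139, 0.0584, 0.061, 0.0932 and 0.12.

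A set of 17 pairs of related genes, each a broadly expressed member and its relative enriched in neurons, was read side by side. The neuronal member rose at least 2-fold in 16 pairs, against 23% of all tested genes, with a median of 2.17 over the 17. The broad member fell in 13, with a median of -0.43, and at least 2-fold in only 5. Of all tested genes, 40.7% fell, and 19.4% fell at least 2-fold. In 12 pairs the broad member fell and the neuronal one rose. The log2 fold change of the neuronal member was above that of its partner in all 17, with a median gap of 2.76.

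The pairs with the widest gaps came from different parts of cell biology. Snap23, the general membrane fusion protein, went from 36, 29.8 and 36.8 CPM to 9.8, 10.4 and 9.98 CPM, a fall of 1.77, while its neuronal relative Snap25 rose by 3.31. Actl6a, a subunit of the BAF chromatin remodelling complex in progenitors, went from 150, 131 and 151 CPM to 23, 24.4 and 20.9 CPM, a fall of 2.66 ± 0.1. Actl6b, its replacement in neurons, went from 25.6, 33.4 and 29.5 CPM to 143, 147 and 148 CPM, a rise of 2.31 ± 0.1. A second BAF pair moved the same way, with Ss18 down by 1.92 and Ss18l1 up by 1.59. Among translation factors, Eef1a1 fell by 0.43 and Eef1a2 rose by 3.97 ± 0.16.

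Apart from the 12 pairs in which the broad member fell and the neuronal one rose, the neuronal member fell in 1 pair. The broad member rose in 3 pairs and was not called in 1. Ptbp1, a splicing repressor of progenitors, fell by 2.53 ± 0.07, and Ptbp2, which takes its place in young neurons, fell as well, from 410, 393 and 411 CPM to 235, 258 and 220 CPM, by 0.77 ± 0.06. In the Rbfox pair both members rose, by 1.36 for Rbfox2 and 1.67 for Rbfox3, which encodes the neuronal marker NeuN. Dnm2 did not pass the test (log2 fold change -0.06, adjusted p = 0.358), and passed it under scaling by totals (-0.25, adjusted p = 0.000725). Small falls of 3 broad members were lost when single libraries were left out. For Celf1 (-0.15) the adjusted p was 0.072 without P1 A and 0.187 without P1 B, for Gdi2 (-0.18) it was 0.0881 and 0.0932 without the same libraries, and for Kif5b (-0.17) it was 0.0508 without P1 C.

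**Figure D3:**
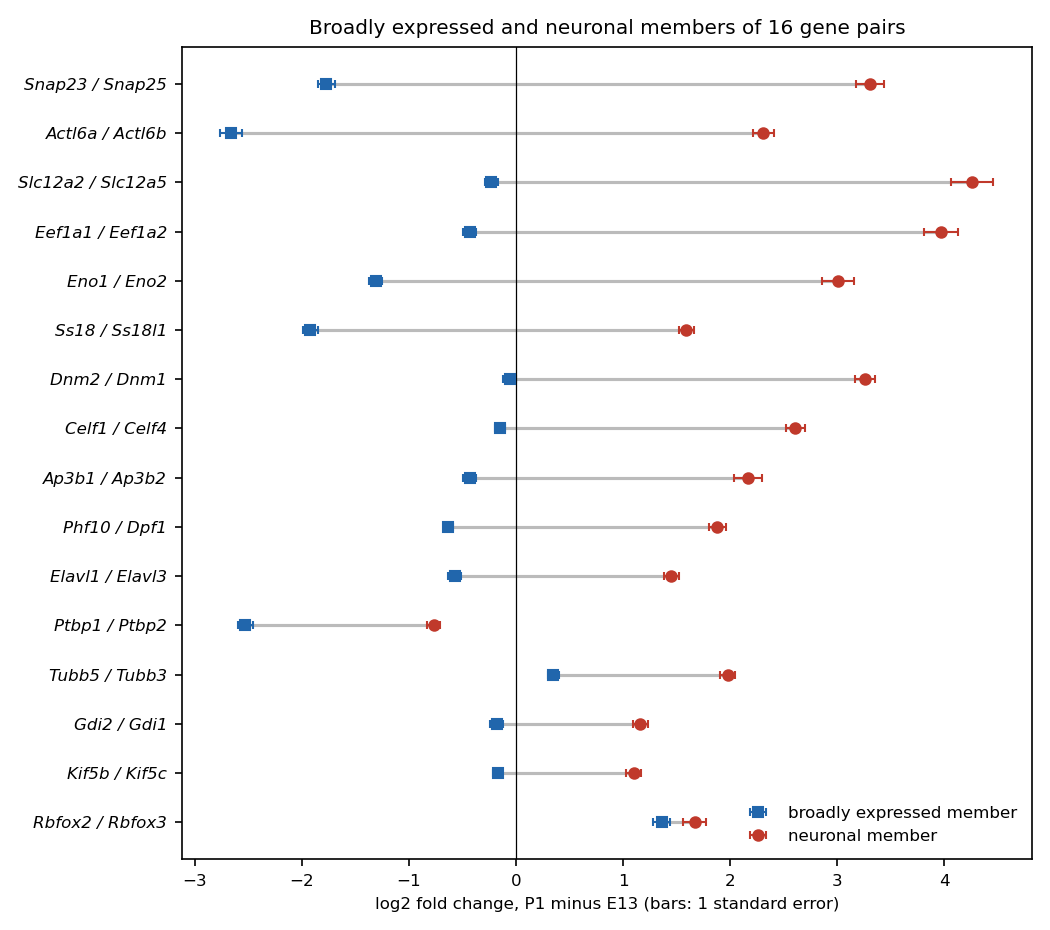
Log2 fold changes, P1 minus E13, of the broadly expressed (squares) and neuronal (circles) members of 16 of the 17 gene pairs, with bars of 1 standard error, ordered by the gap between them. The neuronal member lies to the right in every pair drawn, and Ptbp2 at -0.77 is the single neuronal member below 0.

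Genes of deep-layer neurons, which are born early, moved both ways. Of 9 deep-layer genes, 4 rose, 2 fell and 3 did not pass the test, against 38.5% of all tested genes up and 40.7% down. Tbr1, a factor of the earliest deep-layer neurons, was at 198, 251 and 207 CPM at E13 and at 199, 186 and 184 CPM at P1, with overlapping groups and a log2 fold change of -0.21 (95% confidence interval -0.48 to 0.07), which passed the test under scaling by totals (-0.4, adjusted p = 0.0106). Bcl11b (Ctip2) stood at 166 to 268 CPM and at 187 to 196 CPM, a log2 fold change of -0.13 (-0.46 to 0.21). Fezf2, which specifies corticospinal neurons, fell from 123, 138 and 118 CPM to 73.1, 72.4 and 73.1 CPM, by 0.8 ± 0.08. Without P1 B or P1 C, 1 member of the list fell rather than 2. Among the 4 that rose, Ldb2 went from 11.1, 11.2 and 11.8 CPM to 140, 142 and 135 CPM, by 3.62 ± 0.08, Nfe2l3 rose by 2.67 ± 0.25, Crym by 2.38 ± 0.37 and Tle4 by 0.87 ± 0.06.

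Upper-layer genes rose in 7 of 9, 5 of them at least 2-fold, against 38.5% and 23% of all tested genes. Cux2, a homeobox gene of upper-layer neurons, went from 33.3, 38.9 and 33.8 CPM to 206, 208 and 221 CPM, a rise of 2.58 ± 0.1 (adjusted p = 5.9e-11). At E17 it stood at 203 to 226 CPM, a range that overlapped that at P1. Pou3f1, a POU-domain factor, went from 4.89, 7.5 and 6.17 CPM to 106, 116 and 109 CPM, a rise of 4.16 ± 0.15. Cux1 fell slightly, by 0.22 ± 0.09 (adjusted p = 0.031), a call lost without E13 C, P1 A, P1 B or P1 C (adjusted p = 0.128, 0.0999, 0.241 and 0.0719).

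The earliest cortical neurons are those of the subplate and the Cajal-Retzius cells of the surface. Among 8 subplate genes, 5 rose and 3 fell, each at least 2-fold, against 23% and 19.4% of all tested genes. Hs3st4, a heparan sulfate enzyme, went from 2.7, 5.53 and 2.72 CPM to 87.5, 84.9 and 95.3 CPM, a rise of 4.61 ± 0.2. Cplx3, a complexin, had 3 counts at E13 and 518 at P1, a ratio of 155 (95% counting interval 52.6 to 752). Svil fell as well as Lpar1, a lysophosphatidic acid receptor, and Nxph4, the latter pair by 3.13 and 1.94. Of 8 Cajal-Retzius genes, the transcription factor genes Trp73, Lhx1, Lhx5 and Ebf3 fell, by 1.35, 2.64, 1.3 and 2.43. Reln (reelin), the signal protein these cells secrete and some interneurons also make, rose from 219, 303 and 273 CPM to 432, 517 and 394 CPM, by 0.76 ± 0.16, and Ndnf, which interneurons of the surface layer also express, rose by 4.2 ± 0.2.

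Interneuron genes rose in 10 of 13, against 38.5% of all tested genes. Npy, the gene of neuropeptide Y, rose most, from 0.317, 0.253 and 0.617 CPM to 84.3, 68.3 and 92.9 CPM (log2 fold change 7.71 ± 0.23). Lhx6, a factor of interneurons from the medial ganglionic eminence, went from 6.64, 7.83 and 5.49 CPM to 83, 85.9 and 86.1 CPM, a rise of 3.67 ± 0.13. Gad1, the enzyme that makes GABA, rose by 3.78 ± 0.53 and Sst (somatostatin) by 2.93 ± 0.26. The Dlx genes, factors of the ventral forebrain, were unevenly spread at E13. Dlx1 was at 2.75, 4.69 and 22.1 CPM and Dlx2 at 1.64, 2.08 and 12.7 CPM, with E13 C highest for both. At P1 they were at 95 to 99.1 and 27 to 30.7 CPM. The rise of Dlx1 was 3.33 ± 1 (adjusted p = 0.014), and Dlx2, with groups that did not overlap, had a log2 fold change of 2.41 ± 1.04 that did not pass the test (adjusted p = 0.0599). Sp8 fell by 1.33.

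Striatal neuron genes moved in the same direction. Their summed level was 19.7 to 24.7 CPM at E13 and 79.3 to 104 CPM at P1. Of the 9 genes, 6 rose and none fell, against 38.5% and 40.7% of all tested genes. The dopamine receptor gene Drd1 went from 1.91 ± 1.05 to 11.4 ± 2.04 CPM. The part of neighbouring striatum in the interneuron result was not tested.

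Astrocyte genes rose in 10 of 13, 9 of them at least 2-fold, against 38.5% and 23% of all tested genes, with a median of 2.01. Gfap, the intermediate filament of astrocytes, went from 0.106, 0.112 and 0.154 CPM at E13 to 49.2, 59.8 and 48.9 CPM at P1, a rise of 8.7 ± 0.78 (adjusted p = 2.5e-06), with 4.06 to 20.6 CPM at E17. Aqp4, the water channel of their end feet, rose by 4.41 ± 0.32, Aldh1l1, a folate enzyme, by 6.24 ± 0.43, and Apoe, a lipid carrier, by 2.03 ± 0.11. Slc1a2, the main glutamate transporter of mature astrocytes, rose by 2.01 ± 0.17.

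The connexins, gap junction proteins, went the other way. Gja1, which radial glia and meningeal cells also express, was at 195, 149 and 190 CPM at E13 and at 28.4, 17.8 and 28.6 CPM at P1, a fall of 2.83 ± 0.26 (adjusted p = 1.82e-06). Gjb6 was at 2.25 to 3.86 CPM and at 0.453, 0 and 0.119 CPM, a log2 fold change of -4.08 that was -5.59 without P1 A and -3.47 without P1 B. Summed levels of meningeal genes, given below, fell over the same interval, and their part in the connexin result was not tested. Aldoc stood at 242 to 286 CPM at E13 and 109 to 141 CPM at P1, with groups that did not overlap, yet did not pass the test in the fit that shares its spread over 4 ages (-1.11 ± 0.58, adjusted p = 0.11).

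In the oligodendrocyte lineage all 11 tested genes rose. Olig1, a factor of the lineage, was at 0.106, 0.0842 and 0.339 CPM at E13 and at 104, 104 and 111 CPM at P1, a log2 fold change of 9.26 ± 0.52 that was 10.07 without E13 C. Sox10 had 2 counts at E13 and 2133 at P1, a ratio of 955 (95% counting interval 264 to 7890). Gpr17, a receptor of maturing precursors, rose by 9.34 ± 0.74, and by 9.97 without E13 A. Pdgfra, the growth factor receptor of precursors, rose less, from 34.7, 23.9 and 35.4 CPM to 123, 114 and 122 CPM (1.93 ± 0.17). Mbp, a gene of myelin, rose less, by 1.3 ± 0.1, while Mog had 4 counts at E13 and 8 at P1 and was not tested.

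Microglia genes rose in 8 of 13, with a median of 0.64, while 1 fell and 4 were not called. A rise of at least 2-fold was met by 4 of them. Of all tested genes, 38.5% rose, and 23% rose at least 2-fold. P2ry12, a purine receptor, rose by 1.08 ± 0.17 and Cx3cr1, the fractalkine receptor, by 1.03 ± 0.24. Csf1r, the growth factor receptor these cells depend on, did not pass the test (0.29, adjusted p = 0.2). Tmem119 fell by 1.42 ± 0.28, and it is also expressed outside the brain's immune cells.

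Of 12 endothelial genes, 4 rose and 6 fell, near the shares over all tested genes (38.5% and 40.7%). Genes of the blood-brain barrier moved both ways. Slco1c1, a thyroid hormone transporter, rose from 3.81, 3.43 and 1.57 CPM to 72.5, 64.6 and 64.1 CPM (4.5 ± 0.36), the tight junction gene Cldn5 by 1.12 ± 0.12 and the efflux pump Abcb1a by 1.08 ± 0.17, while the glucose transporter Slc2a1 fell by 1.69 ± 0.07. Among general endothelial genes, Flt1 (0.21) and Esam (-0.15) did not pass the test. Cdh5 fell by 1.66 ± 0.12, Kdr by 0.91 ± 0.13 and Pecam1 by 0.83 ± 0.11, and so did Plvap, a gene of leaky vessels, by 1.35 ± 0.13. Slco1c1 is also expressed by astrocytes. Of 7 pericyte genes, Rgs5 and Kcnj8 rose by 1.07 and 0.34, Pdgfrb, Vtn and Anpep fell by 0.37, 1 and 1.8, and Abcc9 and Ndufa4l2 were not called. Without E13 B, without E13 C and under scaling by totals, 1 pericyte gene rose rather than 2.

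Genes of the tissues that border or supply the cortex were high at E13 and low at P1. Summed over 10 meningeal fibroblast genes, the level was 934, 827 and 1140 CPM at E13 and 60.1, 15.9 and 17.7 CPM at P1, with P1 A above the other P1 libraries. All 10 fell, Col1a1, the type I collagen, by 5.74 ± 0.6. Choroid plexus genes summed to 404, 359 and 44.1 CPM at E13, with E13 C far below the others, and to 2.9, 2.76 and 2.96 CPM at P1. Ttr (transthyretin), the most abundant product of that epithelium, was at 322, 290 and 24.3 CPM and then at 0.103 to 0.215 CPM, a log2 fold change of -10.49 ± 1.86 (adjusted p = 0.000739) that did not pass in limma-voom (-9.81, adjusted p = 0.162). Clic6 fell by 6.76 ± 0.84. Kl was the member that rose, from 0.218 to 0.531 CPM in the mean. Red cell genes summed to 1270, 783 and 1760 CPM and then to 84, 57.6 and 45.6 CPM.

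Within the red cell list the embryonic and adult globins fell by different amounts. The embryonic genes Hbb-y and Hba-x had log2 fold changes of -10.48 ± 0.99 and -9.66 ± 0.94, which were -13.74 and -12.43 without P1 B, and for Hba-x -9.01 without P1 C. Hbb-bh1, another embryonic gene, had 1031 counts at E13 and 2 at P1, a ratio of 576 (95% counting interval 159 to 4760). The adult gene Hbb-bs fell by 1.9 ± 0.57 and Hba-a1 by 3.31 ± 0.49, and adult globin copies are so alike that their shares are uncertain. Of 8 skin and muscle genes, 6 had too few counts to be tested, and Myh3 and Acta1 rose to 1.89 ± 0.663 and 3.76 ± 0.675 CPM at P1.

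**Figure D4:**
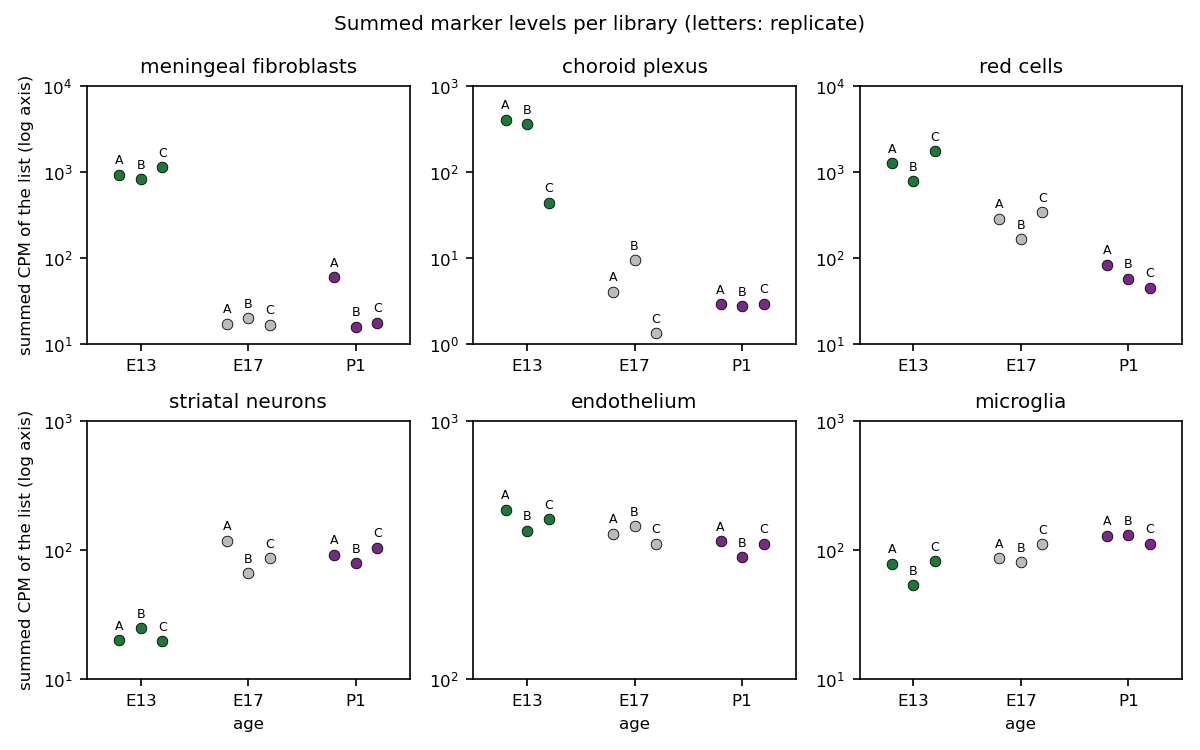
Summed CPM of 6 marker lists in each library (letters mark the replicate) at E13, E17 and P1, on log axes. Meningeal, choroid plexus and red cell sums are high at E13. E13 C is low for choroid plexus (44.1 CPM) and P1 A is high for meninges (60.1 CPM). Endothelial sums are 375 to 453 CPM at E13 and lower at P1, at 297 to 342 CPM. Of these sums, the glucose transporter gene Slc2a1 alone makes up 113 to 130 CPM at E13 and 35.6 to 40.6 CPM at P1.

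Glycolysis genes fell on balance, 12 of 19 down and 5 up, against 40.7% and 38.5% of all tested genes, with a median of -0.98. The falls included Pkm, the pyruvate kinase, by 1.62 ± 0.06, Gapdh by 1.12 ± 0.08, Ldha, which makes lactate, by 1.03 ± 0.12, and the glucose transporter Slc2a1 by 1.69 ± 0.07. The members that rose were other forms of the same steps. Hk2, the hexokinase of growing cells, went from 58, 66.8 and 63.5 CPM to 4.47, 5.05 and 4.03 CPM (-3.8 ± 0.12), and Hk1, the form of neurons, from 48, 60.3 and 54.7 CPM to 385, 382 and 420 CPM (2.86 ± 0.1). At the phosphofructokinase step Pfkl fell by 0.98 and Pfkp rose by 4.2 ± 0.16, at the enolase step Eno1 fell by 1.31 and Eno2 rose by 3.01 ± 0.15, and among glucose transporters Slc2a3 rose by 1.69 ± 0.09.

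Newborn mice feed on fat-rich milk, and the brain then uses ketone bodies. Of 8 genes for the use of ketone bodies and lactate, 5 rose and 3 fell, against 38.5% and 40.7% of all tested genes. Bdh1 and Oxct1, enzymes that break ketone bodies down, rose by 1.45 ± 0.09 and 0.8 ± 0.07, and the neuronal transporter Slc16a7 (MCT2) by 3.46 ± 0.12. Slc16a1 (MCT1) fell by 0.67 ± 0.11. Before birth, at E17, Bdh1 already stood at 188 to 196 CPM, against 208 to 223 CPM at P1. Slc16a7 stood at 69.5 to 86.7 CPM at E17 and 68.8 to 91.6 CPM at P1. Summed over the list, the level was 556 to 572 CPM at E13, 808 to 859 CPM at E17 and 931 to 1040 CPM at P1. The part of feeding in these changes was not tested. Cholesterol genes rose in 15 of 21, against 38.5% of all tested genes. Only 2 rose at least 2-fold, against 23% of all tested genes. These were Hmgcs1, an early enzyme of the pathway, by 1.28 ± 0.09 and Mvd by 1.15 ± 0.11. Idi1, an isomerase of the pathway, fell by 0.77 ± 0.11. In the hypoxia list 2 of 11 rose and 6 fell, against 38.5% and 40.7% of all tested genes, with a list median of -0.34. Ndrg1, also a myelin-lineage gene, rose by 2.8 ± 0.11.

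Immediate early genes, which neurons switch on when active, moved in both directions. Of 11 tested, 7 rose and 3 fell, against 38.5% and 40.7% of all tested genes. Egr1 was at 4.47, 3.4 and 4.29 CPM at E13, 4.58, 6.52 and 3.73 CPM at E17 and 32, 26.9 and 36.1 CPM at P1, a log2 fold change of 2.97 ± 0.19 (adjusted p = 7.4e-09). Egr3 rose by 5.75 ± 0.39, Npas4 by 3.03 ± 0.27 and Fos by 2.1 ± 0.23, all from under 1 CPM. Jun, a partner of Fos, fell from 133, 139 and 142 CPM to 43.8, 39 and 39.6 CPM, by 1.76 ± 0.06, and Arc fell by 1.54 ± 0.19.

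Of 14 genes of thyroid hormone and glucocorticoid action, 11 rose and 2 fell, against 38.5% and 40.7% of all tested genes. Klf9, a target of both hormones, was at 2.49, 2.53 and 2.22 CPM at E13, 7.54, 10.2 and 4.88 CPM at E17 and 30.1, 28.5 and 37.6 CPM at P1, a rise of 3.73 ± 0.24 (adjusted p = 1.14e-08). Dio2, which activates thyroid hormone, rose by 4.74 ± 0.33, the receptor gene Thra by 2.45 ± 0.07 and the target Hr by 2.66 ± 0.15. Sgk1, a glucocorticoid target, rose by 3.14 ± 0.15, while Fkbp5, another, fell by 0.37 ± 0.05. Hsd11b2, which inactivates glucocorticoids, fell by 3.63 ± 0.53 from 0.887 ± 0.307 CPM.

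Imprinted genes, expressed from 1 parental copy, fell in 12 of 19 and rose in 6, against 40.7% and 38.5% of all tested genes. Grb10, a growth inhibitor, went from 863, 772 and 872 CPM to 45.1, 41.6 and 43.4 CPM (-4.27 ± 0.09, adjusted p = 9.31e-13), and Plagl1 from 415, 368 and 401 CPM to 39.6, 36.4 and 31.9 CPM (-3.46 ± 0.11). Igf2, a fetal growth factor, went from 292, 210 and 285 CPM to 52.8, 23.5 and 23.4 CPM (-2.98 ± 0.3), and H19, its noncoding neighbour, from 284, 181 and 275 CPM to 16.1, 6.01 and 9.24 CPM (-4.57 ± 0.41). P1 A was highest at P1 for both, the library that was also highest for meningeal genes, and the part of meningeal cells was not tested. Meg3, a noncoding RNA, rose from 62, 99.7 and 90 CPM to 920, 1070 and 1180 CPM (3.65 ± 0.28), its neighbour Rian by 2.55 ± 0.19, and Snrpn, a splicing protein gene, by 1.95 ± 0.07.

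Heat shock genes and the mitochondrial genome moved little. Of 6 heat shock genes, 3 fell and 1 rose, with Hspa8 down by 0.38 ± 0.08. The rise, of Hspa1a, cannot be told from its near-identical copy Hspa1b, and no member rose under scaling by totals, in DESeq2, or without E13 A, E13 B, E13 C or P1 C. Without P1 B, 1 member fell. Of 8 mitochondrial genes tested, 4 rose, by 0.35 (mt-Nd1 and mt-Nd5) to 0.48 (mt-Nd2), none of which passed under scaling by totals and 2 of which passed without E13 B, and mt-Nd6, encoded on the opposite strand from the rest, fell by 1.54 ± 0.22, from 65.8, 47.9 and 89.7 CPM to 18.1, 27.2 and 24.6 CPM. The strand setting of the authors' counting is unknown, so reads of mt-Nd6 and of transcripts across from it may not have been told apart.

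Zinc is stored in synaptic vesicles of cortical neurons. It enters the cytosol through transporters of the ZIP family (Slc39a genes), leaves it through the ZnT family (Slc30a genes) and is bound by metallothioneins. Against the changes above, zinc genes moved little. Of 24 tested, 9 rose, 7 fell and 8 did not pass the test, which is 66.7% called against 79.2% of all genes, and 25% changed at least 2-fold against 42.4%. Their median log2 fold change was 0.03. Summed over the family, ZIP genes stood at 621 to 666 CPM at E13 and 654 to 680 CPM at P1, and ZnT genes at 353 to 420 and 342 to 364 CPM, with overlapping ranges in both families.

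Single zinc genes departed from that picture. Slc30a10 (ZnT10), which in mammals mainly exports manganese, was at 94.9, 159 and 99.4 CPM at E13 and at 26.3, 31.6 and 27.7 CPM at P1, a fall of 2.05 ± 0.28 (adjusted p = 6.45e-05) with E13 B the highest library. Slc30a4 (ZnT4) went from 34.8, 30.8 and 32.2 CPM to 86.1, 93 and 93 CPM, a rise of 1.48 ± 0.06 (adjusted p = 5.38e-11). Slc30a3 (ZnT3), the transporter of synaptic vesicles, was low throughout, at 0.132, 0.253 and 0.154 CPM and then at 1.6, 2.19 and 3.94 CPM, a rise of 3.82 ± 0.57 (adjusted p = 4.47e-05) with P1 C highest. Among exporters that supply the secretory pathway, Slc30a5, Slc30a6 and Slc30a7 fell by 0.39, 0.46 and 0.55, and Slc30a9, a mitochondrial transporter, rose by 0.47. Slc30a1 (ZnT1), the exporter of the cell surface, did not pass the test (0.07, adjusted p = 0.608).

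Among importers, Slc39a1 (ZIP1) went from 43.3, 38 and 41.3 CPM to 19.9, 16.7 and 20.3 CPM, a fall of 1.11 ± 0.08 (adjusted p = 2.01e-08). Slc39a2 rose by 1.03 ± 0.26, Slc39a3 by 0.76 ± 0.05 and Slc39a13 by 0.64 ± 0.11. Slc39a12 rose by 1.45 ± 0.42 from under 1 CPM, and by 2.07 without E13 A. Slc39a6 rose by 0.14 ± 0.04 (adjusted p = 0.00919), a direction that flips to -0.05 when libraries are scaled by their totals alone. Slc39a7 fell by 0.14 (adjusted p = 0.0104), a call lost without P1 A or P1 B (adjusted p = 0.137 and 0.172). Slc39a8, Slc39a9, Slc39a10, Slc39a11 and Slc39a14 did not pass the test, with log2 fold changes of -0.09, 0.02, -0.07, 0.07 and -0.07, and that of Slc39a9 flips to -0.17 (adjusted p = 0.00445) under scaling by totals. Under that scaling Slc39a10 and Slc39a14 passed too, at -0.27 and -0.26 (adjusted p = 0.00863 and 0.0351). Slc39a4, Slc39a5, Slc30a2, Slc30a8 and Mt4 had too few counts to be tested.

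Mt3, the metallothionein of neurons and astrocytes, rose from 20.6, 18.3 and 21.7 CPM to 37, 31.9 and 35.4 CPM, by 0.79 ± 0.09 (adjusted p = 3.4e-06). Mt1 was at 24, 30.2 and 19.7 CPM and then at 20.1, 14.7 and 16.2 CPM, with overlapping groups and a log2 fold change of -0.54 ± 0.21 (adjusted p = 0.0332). That call was lost without E13 A, E13 B, P1 B or P1 C (adjusted p = 0.0598, 0.145, 0.146 and 0.113). Mt2 (-0.47, adjusted p = 0.0659; -0.69, adjusted p = 0.00387 without E13 C) and Mtf1, the zinc-sensing factor that drives metallothionein genes (0.03, adjusted p = 0.685), did not pass the test. The value of Mtf1 flips to -0.17 (adjusted p = 0.0262) under scaling by totals.

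**Figure D5:**
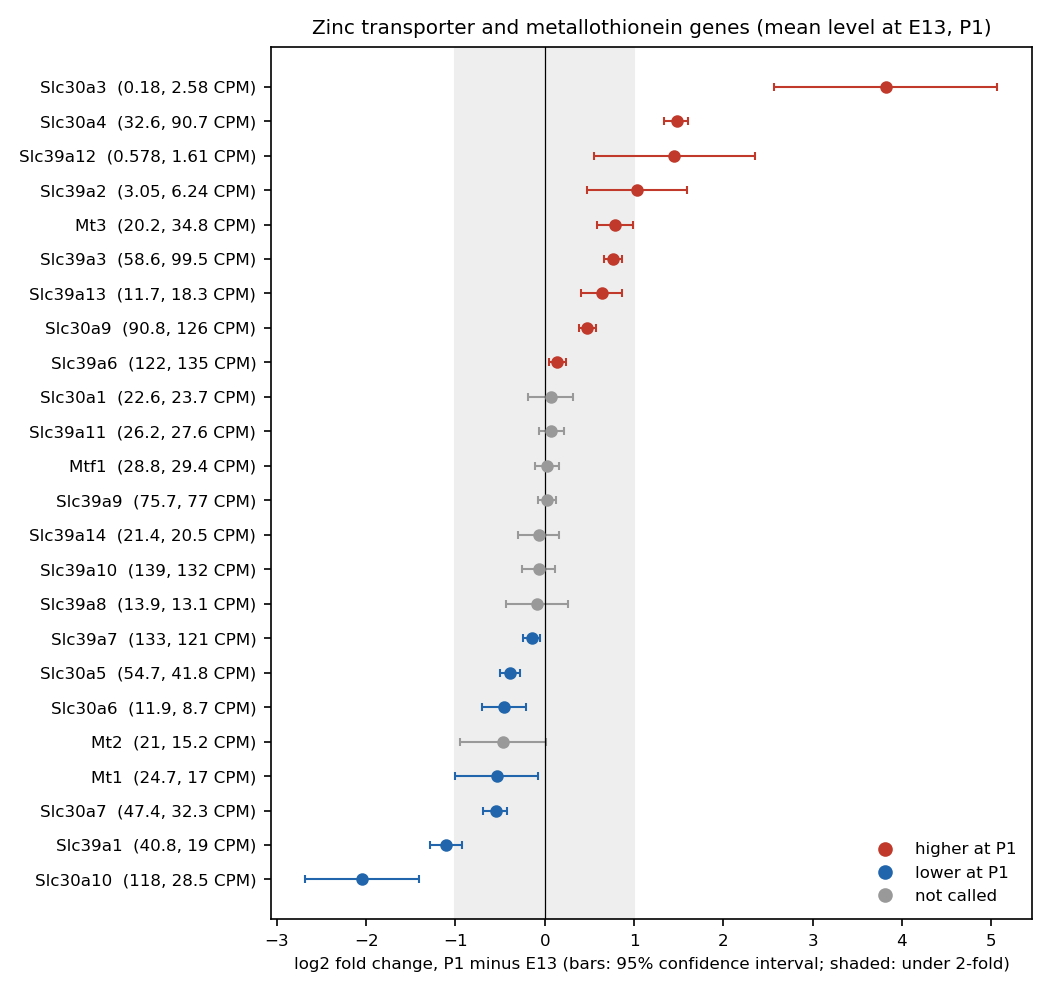
Log2 fold change, P1 minus E13, with 95% confidence intervals for 24 zinc transporter and metallothionein genes, ordered by size, with mean CPM at E13 and P1 beside each name. Most intervals lie inside the shaded band of changes under 2-fold; Slc30a10 (-2.05) and Slc30a3 (3.82) lie farthest out.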

How the data were processed

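RNA sequencing counts per gene were deposited by the authors, unnormalized, as 1 table per library. Poly(A) RNA was sequenced as 75-base single reads, per the labels' protocols. STAR 2.5.2b and HTSeq 0.5.3 are listed, with bcl2fastq 2.18, DESeq2 1.8.1 and SAMtools, in the submitters' processing notes. Their settings, the genome build and the annotation were not given in the sources used here. Symbols came from GENCODE vM21 for 50376 of 50600 identifiers, and rows without one held 0.0674% to 0.0877% of counts. Counts were tested with edgeR 4.0.16 (R 4.3.3; quasi-likelihood, robust, two-sided, TMM scaling, factors 0.92 to 1.09, minimum count 10) on 12 libraries with a coefficient per age, and Benjamini-Hochberg adjusted p-values. Intervals are 95%. The script was tested on simulated data. DESeq2 1.42.0, limma 3.58.1 and other filters, scalings and left-out libraries were alternatives. Promoters are from RefSeq. Errors after ± are standard errors of log2 fold changes and SDs of levels (n = 3).

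Named genes were 40 anchor genes, zinc genes and pairs, the extremes of each list, the 10 largest changes per direction (at least 10 CPM, no overlap; Xist, Y-linked and unnamed genes left out) and 10 genes by E17 level. Other list members were named after their values were seen, and the members and lists were chosen with earlier results of these data known. Some list members are counted and not reported here by name. Deviations of same-letter libraries correlated with r = 0.236, 0.171 and -0.113. Letters were not used as pairs in the reported fit, and so few values cannot exclude a pairing by letter.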

Additional observations from a re-analysis of the deposited data

Results flagged for a closer look

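The E17 libraries entered the fit for their spread and no comparison. Among 1427 genes with at least 10 CPM at E13, E17 or P1 that did not pass the test between E13 and P1 (absolute log2 fold change at most 0.25), 395 had all 3 E17 libraries above all E13 and P1 libraries. The 5 highest by the ratio of the E17 mean to the other ages were singled out by that rule, so their levels are a description.

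Nrp1, a receptor for semaphorins and VEGF in growing axons and vessels, was at 69.6, 93.1 and 62.5 CPM at E13, 162, 254 and 197 CPM at E17 (mean 204 CPM) and 95.5, 97.9 and 64.5 CPM at P1. The E17 means were 98.1 CPM for Mir124a-1hg, a host transcript of the neuronal microRNA miR-124, 28.7 CPM for Col12a1, a collagen, 18.9 CPM for Ptx3, a pentraxin, and 21.1 CPM for Veph1. Col12a1 passed the E13 to P1 test when E13 A was left out (-0.43, adjusted p = 0.00808, edgeR) and under scaling by library totals (adjusted p = 0.0246).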

How the results depend on the processing

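Across 17 alternatives, 12666 to 15067 genes were called (14127 as reported), and no gene called as reported was called in the opposite direction. From 89.4% (genes with at least 1 CPM in 3 libraries) to 99.4% (limma-voom) of the reported calls were kept. DESeq2 called 13820 genes. Leaving out 1 library at a time gave 13604 to 14074, and leaving out E13 C and P1 A together, an alternative chosen after seeing their choroid plexus and meningeal levels, gave 13172. With the replicate letter as a block 14003 genes were called, and 13715 with that block in the 6 libraries alone. Among 143 called genes of the naming rule, 131 kept the call under every alternative run, while those that lost it at least once included Celf1, Cux1, Slc39a7, Slc39a6, mt-Nd2, Gdi2, Kif5b, Mt1, Lin28b, Scn4b and Ttr. Scaling by library size alone turned the direction of 3 small changes, giving -0.17 for Mtf1, -0.05 for Slc39a6 and -0.17 for Slc39a9, and under it 5 ZIP genes and 5 cholesterol genes fell against 2 and 2. Of these, all but Ttr changed less than 2-fold, and with 3 animals per age small changes are the least certain. The cause of these shifts was not tested.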

Other observations

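Of the same 1427 genes with no call and a small difference between E13 and P1, 257 had all 3 E17 libraries below all E13 and P1 libraries. The 5 lowest were Cercam, Col15a1, Col16a1, Sash1 and Tril. Col15a1, a collagen of vessel walls, was at 28.8, 28.7 and 29.3 CPM at E13, 14.9, 12.5 and 11.4 CPM at E17 and 28.8, 27.2 and 33.7 CPM at P1. Tril, a modulator of Toll-like receptor signalling, was at 30, 22.6 and 28.6 CPM, 7.5, 10.8 and 6.66 CPM, and 23.5, 30.1 and 35.2 CPM at the same ages. Under scaling by library totals, Cercam and Col16a1 passed the E13 to P1 test (edgeR adjusted p = 0.0234 and 0.0116). Cercam stood at 4.51 to 5.05 CPM at E17, against 10.3 to 11.5 CPM over the 6 libraries of E13 and P1.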
